A study of Mus musculus with 12 samples.

Results

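A set of 9 genes that encode proteins acting on AU-rich and Pumilio elements of mRNA were followed through the transition of mouse embryonic stem cells (ESCs) to epiblast-like cells (EpiLCs). These genes, Zfp36, Zfp36l1, Zfp36l2, Elavl1, Elavl2, Khsrp, Pum2, Rc3h1 and Rc3h2, were chosen by name for the role of their proteins, from 51467 genes in the count table. All 9 were among the 14731 genes kept for testing, which had 3 or more CPM (reads of a gene per 1000000 reads of the library) in 3 or more libraries. Gene positions are those of GRCm38 (mm10). The naive ESCs were kept in Knockout DMEM with fetal bovine serum, LIF and the 2i inhibitors PD0325901 (of MEK) and CHIR99021 (of GSK3). EpiLCs came from the same cells, which were replated and collected about 56 hours after LIF and 2i were withdrawn, and the study's methods describe differentiation of 1 reporter line, so both cell types stand for that line alone. All cells of both types received 500 µM 4-thiouridine (4sU), a uridine analogue that newly made RNA takes up, for a 30 min pulse. The extracted RNA was sequenced as total RNA or after pull-down of the 4sU-labelled RNA, with 3 libraries for each cell type and each kind of RNA, 12 in all.

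AU-rich elements are short stretches of A and U in the 3′ untranslated region (3′ UTR) of many unstable mRNAs. ZFP36 (tristetraprolin) and its paralogs ZFP36L1 and ZFP36L2 bind them and recruit the CCR4-NOT deadenylase, which shortens the poly(A) tail and starts decay, while HuR (Elavl1) binds similar stretches and is mostly known to protect mRNAs. KSRP (Khsrp) promotes decay of AU-rich mRNAs, the Roquins (Rc3h1 and Rc3h2) bind stem-loops and promote decay, and PUM2 reads the Pumilio element and represses its targets, also through CCR4-NOT.

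The mRNAs of these proteins carry such elements themselves. The 3′ UTRs of the 12241 protein-coding genes in the analysis that have one annotated were searched on the transcript strand for TATTTAT, the DNA spelling of the AU-rich heptamer, and for TGTANATA, the Pumilio element, with overlapping matches counted separately. TATTTAT occurred in 8 of the 9 genes, against 29.3% of all genes, and Khsrp was the gene without a match. The share rises with the length of the 3′ UTR, and 5 of the 9 (Elavl1, Elavl2, Pum2, Rc3h1 and Rc3h2) lie in the longest quartile, from 2140 bases up, where 56.0% of genes held a match. Elavl1 held 8 matches, a number that 15 genes (0.123%) reach or pass, and Zfp36, Zfp36l1, Zfp36l2, Elavl2 and Rc3h2 held 3 each, which 3.8% of genes reach or pass. The densest window of 30 bases in Elavl1 and in the 3 Zfp36 family genes is printed here for the AU-rich element, since Elavl1 and the make-up of the Zfp36 family carry the main contrasts between the 2 kinds of RNA and the 2 cell types, with each match in capitals and the transcript strand written 5′ to 3′.

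Elavl1: TATTTATTTATTTATTTATtttTATTTATt
Zfp36: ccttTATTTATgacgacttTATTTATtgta
Zfp36l1: ttatcaaaacgTATTTATtgccaaactatg
Zfp36l2: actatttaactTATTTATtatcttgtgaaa

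The Elavl1 window lies at chr8:4285776-4285805 on the minus strand of GRCm38 and holds 5 of the 8 matches of this 3′ UTR, which is 4218 bases long. In Zfp36 the window lies at chr7:28376958-28376987 (minus strand) in a 3′ UTR of 774 bases and holds 2 of its 3 matches. The windows of Zfp36l1 and Zfp36l2 lie at chr12:80108421-80108450 and chr17:84184913-84184942, both on the minus strand, with 1 match each.

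TGTANATA occurred in 4 of the 9 genes, against 26.0% of all genes. All 4 lie in the longest quartile, where 50.9% of genes held a match. Elavl2 held 3 matches, Pum2 and Rc3h1 held 2 each and Rc3h2 held 1. The mRNA of Pum2 thus spells the element that its own protein is known to read, and a match from Pum2 and one from Elavl2 are shown with the Pumilio element in capitals.

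Pum2: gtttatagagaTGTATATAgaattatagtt
Elavl2: gctttgtgtgaTGTAAATAagaccttgtgt

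The Pum2 window lies at chr12:8750154-8750183 on the plus strand and the Elavl2 window at chr4:91251942-91251971 on the minus strand. A match describes the letters of the annotated 3′ UTR and does not show that a protein was bound there.

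The cells carried the naive and primed marker RNAs that their labels name. All 6 naive markers (Zfp42, Esrrb, Klf4, Prdm14, Tbx3 and Nr5a2) fell and all 6 primed markers (Fgf5, Otx2, Dnmt3b, Pou3f1, Fgf8 and Dnmt3a) rose in EpiLC total RNA. Of 3 general pluripotency markers, 1 was called lower there (Sox2, log2 change -3.55 ± 0.21) and 2 were not called. Total RNA libraries held 9300845 to 21975684 reads in genes, and those of 4sU RNA held 3097693 to 5385644. Summed over 8 fibroblast markers, total RNA held 11.3 to 15.5 CPM in ESCs and 16.3 to 20.8 CPM in EpiLCs, whereas 4sU RNA held 7.87 to 9.76 and 6.36 to 6.83 CPM. Of these markers, 4 of 8 passed the filter, Postn was at 0 in every ESC library, and the list went both ways in total RNA. Dcn, at 0 in all ESC libraries and at 4.46 to 5.31 CPM in EpiLCs, and Col1a2 were called higher in EpiLCs, and Pdgfrb was called lower, at 8.54 ± 2.32 and 2.02 ± 0.401 CPM. Summed over 5 endoderm markers, total RNA held 3.24 to 8.06 CPM in ESCs and 6.14 to 6.56 CPM in EpiLCs, with no marker at 0 throughout, and the part of either cell type in the results below was not tested. The ESC libraries numbered 3 stood apart from the other ESC libraries: leaving out both raised the stability calls over all genes from 227 to 779, and among the 9 genes it changed 1 call, that of Zfp36l1 in 4sU RNA. In RNA from bulk cultures, fewer cells of a type and less RNA per cell cannot be told apart.

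To ask how the RNAs of the 9 proteins changed, and whether any change lay in new transcription or in the balance of total to new RNA, the limma-voom model of the study's design was fitted to all 14731 genes. A gene was called when its p-value, adjusted by Benjamini-Hochberg over all genes, was under 0.05 and its log2 fold change was over 1 in size. The change in 4sU RNA stands for the change in transcription (the nascent change). The change in total RNA minus the change in 4sU RNA is the interaction term of the model. This term stands for the change in relative mRNA stability. The study assumes constant mRNA levels within a cell state when it infers degradation from total and 4sU RNA. Whether levels were constant when the EpiLCs were collected was not tested, so stability is meant under that assumption throughout. The study calls its replicates biological, while the labels do not say that the 3 libraries of a group come from separate cultures. The p-values measure the spread between these libraries. Levels are given in CPM after the libraries were scaled with TMM, a trimmed mean that evens out differences in composition.

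In total RNA, 1 of the 9 genes was called higher in EpiLCs (Zfp36) and 0 lower by limma-voom, and by edgeR and DESeq2 alike. Over all genes, 27.6% were called, 16.3% higher and 11.2% lower. With the adjusted p-value alone, 4 genes were higher (Zfp36, Pum2, Rc3h1 and Rc3h2) and 2 lower (Zfp36l1 and Elavl2, also the only falls at an unadjusted p-value under 0.05), where 31.4% of all genes were higher and 32.1% lower. Thus 6 of 9 passed the adjusted p-value where 63.5% of all genes did. In 4sU RNA, 2 of 9 were called, both higher (Zfp36 and Elavl1), against 25.5% of all genes in either direction and 11.9% higher. By the adjusted p-value alone 6 were higher and 1 lower, against 23.7% and 28.8% of all genes (52.5% in either direction). The median log2 change of the 9 genes was 0.13 in total RNA and 0.60 in 4sU RNA, beside medians of 0.02 and -0.09 over all genes. For stability, 0 of the 9 passed both thresholds in limma-voom, where 1.54% of all genes did, and Elavl1 passed the adjusted p-value alone, as did 4.6% of all genes, 1.88% with a lower value in EpiLCs. At an unadjusted p-value under 0.05 Elavl1 was also the only one of the 9, edgeR likewise called none and DESeq2 called Elavl1.

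**Figure D1:**
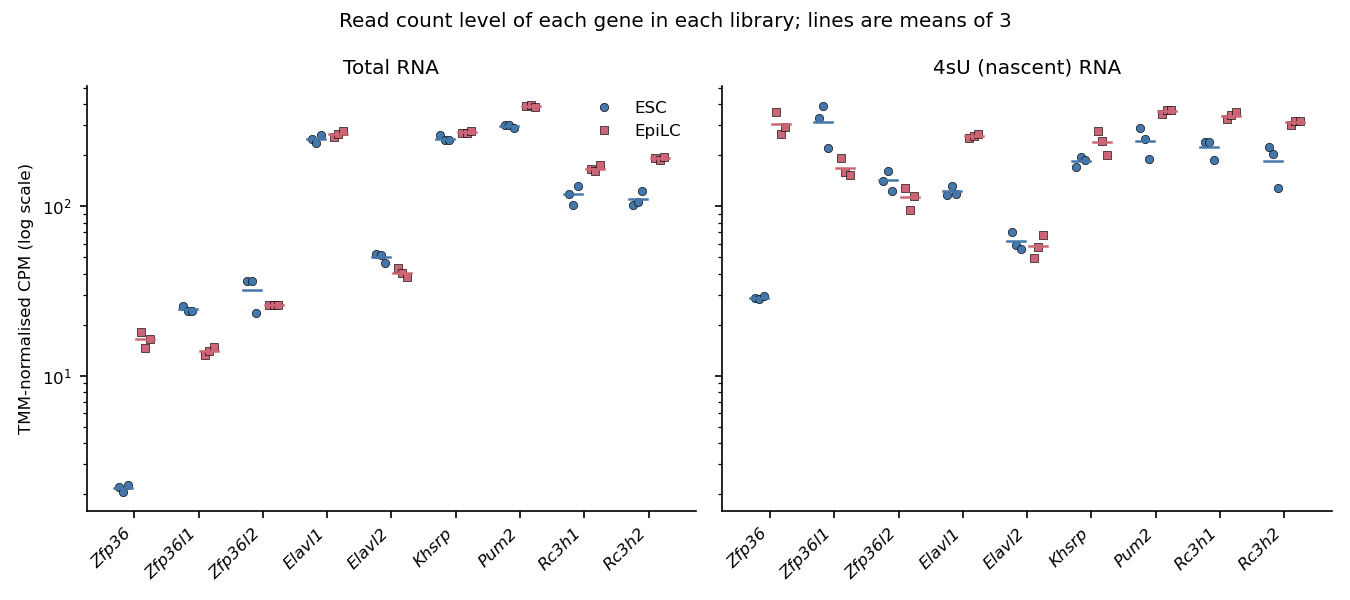
TMM-normalised CPM (log scale) of the 9 genes in each library of total RNA (left) and 4sU RNA (right), with ESC libraries as circles, EpiLC libraries as squares and lines at the means of 3. Zfp36 stood apart from the other genes, rising from 2.06 to 2.26 CPM in ESC total RNA to 14.6 to 18 CPM in EpiLC total RNA.

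Zfp36 (ENSMUSG00000044786.6, chr7:28376784-28380253, minus strand), which encodes the decay factor tristetraprolin, rose more than any other of the 9 genes. Its total RNA was at 2.20, 2.06 and 2.26 CPM in the ESC libraries and at 18, 14.6 and 16.4 CPM in the EpiLC libraries. The 2 groups did not overlap, and the lowest EpiLC library was far above the highest ESC library, although the ESC values rest on only 23 to 41 reads a library. The rise was 7.42-fold (log2 change 2.89 ± 0.22 SE, limma-voom adjusted p = 3.67e-08). In 4sU RNA Zfp36 went from 28.6, 28.4 and 29.3 CPM to 360, 267 and 293 CPM, the steepest nascent rise of the 9 genes. That rise was 10.5-fold (log2 change 3.40 ± 0.13, limma-voom adjusted p = 1.7e-10). Its nascent log2 change was above that of 97.8% of all genes. The difference between the 2 log2 changes was -0.51 ± 0.25 with a 95% interval of -1.05 to 0.04, and it did not pass the test (limma-voom adjusted p = 0.253).

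Zfp36l1 (ENSMUSG00000021127.7, chr12:80107754-80113013, minus strand), the paralog with the highest 4sU level per length in ESCs, was lower in EpiLCs. Its total RNA measured 25.8, 24.0 and 24.0 CPM in ESCs and 13.3, 13.9 and 14.7 CPM in EpiLCs, without overlap. The log2 change was -0.81 ± 0.21 (limma-voom adjusted p = 0.0041), short of the fold threshold. In 4sU RNA the ESC libraries ranged from 221 to 388 CPM and the EpiLC libraries from 153 to 191 CPM, and ESC library 3 was the lowest of its group. The nascent log2 change was -0.88 ± 0.16 (limma-voom adjusted p = 0.000294). Without ESC 4sU library 3 it was -1.04 and passed both thresholds.

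For Zfp36l2 (ENSMUSG00000045817.8, chr17:84183931-84187947, minus strand), the third paralog, the 2 cell types overlapped in both kinds of RNA. Total RNA was at 36.3, 36.2 and 23.3 CPM in ESCs, with library 3 below both others, and at 26.0, 26.2 and 26.2 CPM in EpiLCs. The log2 change of -0.29 ± 0.17 missed the threshold (limma-voom adjusted p = 0.147). Without ESC total library 3 it was -0.47 with an adjusted p-value of 0.00368 in the same test. The nascent change of Zfp36l2 was -0.35 ± 0.15 (limma-voom adjusted p = 0.0705), with ESC 4sU libraries at 123 to 162 CPM and EpiLC libraries at 95.4 to 127 CPM.

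The make-up of the family differed between the cell types. Expressed per kilobase of exon, so that the genes can be compared, Zfp36 made 3.55% ± 0.619 (SD, n = 3) of the summed total RNA of the 3 paralogs in ESCs and 28.0% ± 2.34 in EpiLCs. In 4sU RNA its share went from 5.62% ± 1.42 to 50.1% ± 0.942, while that of Zfp36l1 went from 67.8% ± 4.11 to 31.8% ± 1.67. The libraries of the 2 cell types did not overlap in either of these shares. The summed level of the 3 paralogs in total RNA was 17.9 ± 2.30 CPM per kilobase in ESCs and 16.8 ± 0.441 in EpiLCs, a difference within the spread of the libraries (exact permutation test, two-sided, p = 0.4). In 4sU RNA the sum was 153 ± 33.6 and 176 ± 24.3 CPM per kilobase (exact permutation test, two-sided, p = 0.5). With 3 libraries against 3, the smallest two-sided p-value of this test is 0.1, which each of the shares just given reached (0.145 after Benjamini-Hochberg adjustment over 16 such tests on shares and sums).

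**Figure D2:**
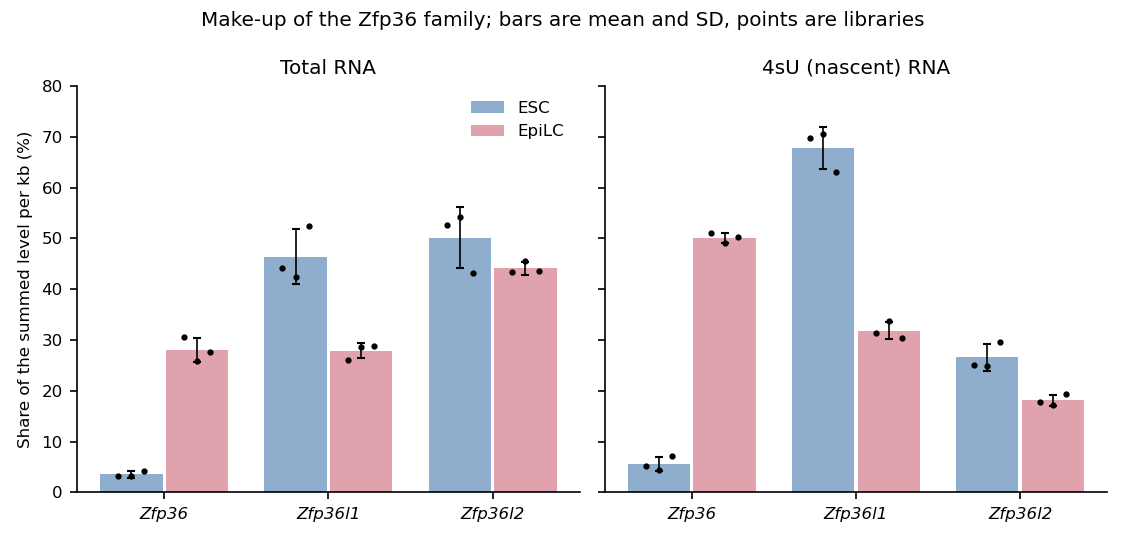
Share of each paralog in the summed level per kilobase of Zfp36, Zfp36l1 and Zfp36l2, in percent, in total RNA (left) and 4sU RNA (right); bars are means of 3 libraries, whiskers the SD and points the libraries. The share of Zfp36 in 4sU RNA stood at 4.46% to 7.20% in ESC libraries and at 49.1% to 51.0% in EpiLC libraries.

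Elavl1 (ENSMUSG00000040028.10, chr8:4285382-4325413, minus strand), the gene of the ubiquitous RNA-stabilising protein HuR, rose in 4sU RNA without a detected change in total RNA. In 4sU RNA the ESC libraries measured 117, 131 and 118 CPM and the EpiLC libraries 252, 260 and 268 CPM. All EpiLC libraries were well above all ESC libraries, and the rise was 2.12-fold (log2 change 1.09 ± 0.08, limma-voom adjusted p = 7.77e-08). In total RNA the ESC libraries measured 248, 236 and 262 CPM and the EpiLC libraries 257, 265 and 279 CPM, so the groups overlapped. The log2 change there was 0.10 ± 0.07 with a 95% interval of -0.04 to 0.25 (limma-voom adjusted p = 0.2). The stability term of Elavl1 was -0.98 ± 0.10, with a 95% interval of -1.20 to -0.76 and a limma-voom adjusted p = 0.000497. This value sat just inside the fold threshold, and only 1.64% of all genes had a lower stability term. In 7 of the 12 fits that left out 1 library, and with 5 of the other settings tried, it passed both thresholds. In the other fits it fell short of the fold threshold, at -0.91 at the least. Exons of 5 of the 9 genes overlap a gene on the opposite strand, by 1672 bases for Zfp36l1, 204 for Elavl1, 125 for Zfp36, 105 for Zfp36l2 and 63 for Khsrp, and reads were counted by strand.

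Elavl2 (ENSMUSG00000008489.18, chr4:91250763-91399984, minus strand), the paralog best known from neurons and germ cells, was lower in total RNA of EpiLCs. Its total RNA was at 52.3, 51.5 and 46.4 CPM in ESCs and at 43.0, 40.4 and 38.1 CPM in EpiLCs, with every EpiLC library below every ESC library. The log2 change was -0.31 ± 0.11 (limma-voom adjusted p = 0.0191), and the adjusted p-value reached 0.0873 when single libraries were left out. In 4sU RNA the libraries overlapped, at 55.9 to 70.7 CPM in ESCs and 49.5 to 67.1 CPM in EpiLCs (log2 change -0.11 ± 0.12, limma-voom adjusted p = 0.482). Per kilobase, Elavl1 made 80.3% ± 1.73 of the summed total RNA of the pair in ESCs and 84.4% ± 1.35 in EpiLCs, and its share of the 4sU RNA went from 61.9% ± 3.72 to 78.6% ± 2.03.

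Khsrp (ENSMUSG00000007670.9, chr17:57021058-57031507, minus strand), which encodes the decay-promoting KSRP, was the most abundant of the 9 per length in total RNA of both cell types. Its total RNA was at 261, 244 and 244 CPM in ESCs and at 271, 269 and 278 CPM in EpiLCs. The groups did not overlap, yet the log2 change of 0.13 ± 0.09 did not pass the test (limma-voom adjusted p = 0.243). Its nascent log2 change was 0.37 ± 0.10 (limma-voom adjusted p = 0.00673), with ESC libraries at 171 to 195 CPM and EpiLC libraries at 201 to 277 CPM.

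Pum2 (ENSMUSG00000020594.14, chr12:8674134-8752581, plus strand), a translational repressor of mRNAs with Pumilio elements, was higher in EpiLCs in both kinds of RNA. Total RNA was at 299, 302 and 287 CPM in ESCs and at 387, 393 and 382 CPM in EpiLCs, tight groups without overlap. The log2 change was 0.39 ± 0.10 (limma-voom adjusted p = 0.00406) and the nascent one 0.60 ± 0.11 (limma-voom adjusted p = 0.000459), both below the fold threshold. In 4sU RNA ESC library 3 was the lowest at 190 CPM, beside 289 and 248 CPM in the other ESC libraries and 351 to 371 CPM in EpiLCs.

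Both Roquin genes, Rc3h1 (ENSMUSG00000040423.10, chr1:160906418-160974978, plus strand) and Rc3h2 (ENSMUSG00000075376.10, chr2:37370069-37422903, minus strand), were higher in EpiLCs. Rc3h2 total RNA was at 101, 106 and 122 CPM in ESCs and 193, 188 and 196 CPM in EpiLCs (log2 change 0.82 ± 0.14, limma-voom adjusted p = 0.00013). Rc3h1 total RNA was at 118, 102 and 132 CPM in ESCs and 165, 160 and 174 CPM in EpiLCs (log2 change 0.52 ± 0.10, limma-voom adjusted p = 0.000503). Neither gene's groups overlapped in total or in 4sU RNA, where the log2 changes were 0.79 ± 0.15 for Rc3h2 and 0.62 ± 0.11 for Rc3h1. ESC 4sU library 3 was again the lowest of its group for both, at 128 CPM for Rc3h2 beside 222 and 203 CPM, and at 188 CPM for Rc3h1 beside 239 CPM in both others. The summed level of the pair in total RNA was 22.8 ± 2.40 CPM per kilobase in ESCs and 36.6 ± 1.05 in EpiLCs (exact permutation test, two-sided, p = 0.1).

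Taking the 9 genes by library, all 3 EpiLC libraries were above all 3 ESC libraries for 5 genes in total RNA (33.5% of all genes) and for 6 genes in 4sU RNA (26.6% of all genes). They were below for 2 genes in total RNA (35.1% of all genes) and for 1 gene in 4sU RNA (34.1% of all genes).

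**Figure D3:**
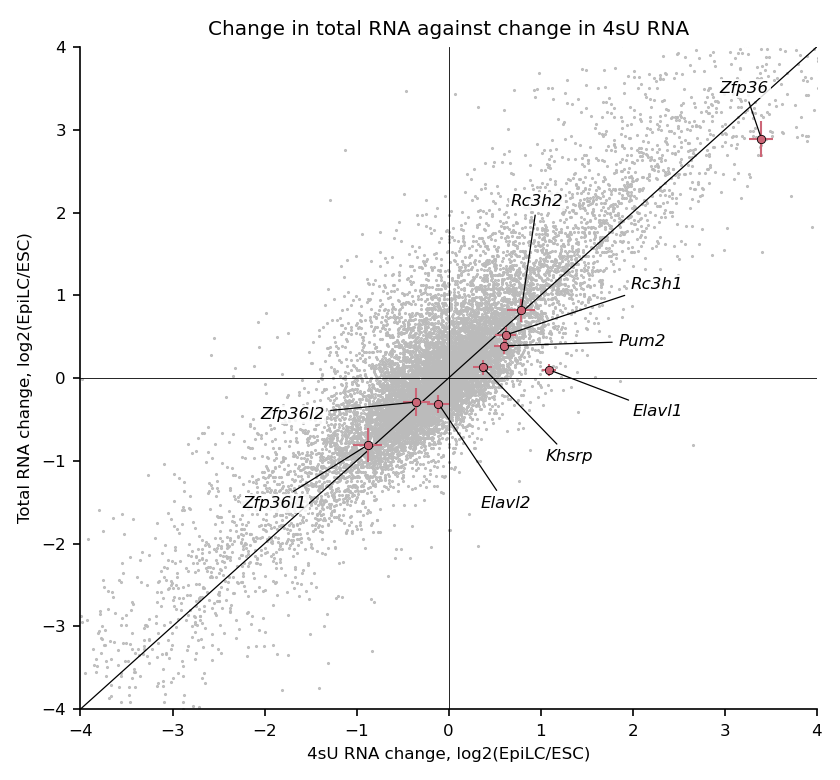
Log2 change from ESCs to EpiLCs in total RNA (vertical axis) against that in 4sU RNA (horizontal axis); grey points are the 14731 genes, of which 594 lie beyond 4 on an axis and are not drawn, and red points are the 9 genes with their SE. On the diagonal both changes are equal: Elavl1 lay below it at 1.09 and 0.10, and Zfp36 at 3.40 and 2.89.

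The order of the levels per length differed between the 2 kinds of RNA. In ESC total RNA Khsrp led with 62.6 ± 2.41 CPM per kilobase, and Pum2 (45.4 ± 1.22) and Elavl1 (42.9 ± 2.23) followed with libraries that overlapped each other. Rc3h2, Rc3h1, Elavl2, Zfp36l2 and Zfp36l1 formed a run from 12.2 ± 1.23 to 8.23 ± 0.345 CPM per kilobase in which each overlapped the next, and Zfp36 was last at 0.627 ± 0.0292. In EpiLC total RNA the first 7 places went to Khsrp, Pum2, Elavl1, Rc3h2, Rc3h1, Elavl2 and Zfp36l2 with no overlap between neighbours, and Zfp36 (4.70 ± 0.486) and Zfp36l1 (4.67 ± 0.240) overlapped at the bottom. In ESC 4sU RNA the order was headed by Zfp36l1 at 105 ± 28.4 CPM per kilobase, with Zfp36 last at 8.30 ± 0.127. In EpiLC 4sU RNA Zfp36 came first at 88.3 ± 13.7 CPM per kilobase, above 95.8% of all genes, ahead of Khsrp at 60.2 ± 9.50, Zfp36l1 at 55.9 ± 6.86 and Pum2 at 55.7 ± 1.65, and these 3 overlapped. Elavl2 was last there at 12.2 ± 1.85.

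Relative stability within a cell type was taken as the log2 ratio of total to 4sU level of libraries with the same cell type and number. It has no absolute scale, because levels are relative to the reads of each library, scaled with TMM over all 12 libraries together. The ratio is read against the other genes, whose median was 0.06 in ESCs and 0.16 in EpiLCs. The 3 Zfp36 family mRNAs had the lowest ratios of the 9 in both cell types. Zfp36 stood at -3.70, -3.79 and -3.70 in ESCs and at -4.32, -4.19 and -4.16 in EpiLCs, where on average 5.73% and 1.00% of all genes were lower. Its 2 sets of ratios did not overlap, although the stability term did not pass the test above. The share of all genes whose ratios do not overlap was not counted. Zfp36l1 stood at -3.63 ± 0.41 (SD, n = 3) in ESCs, overlapping Zfp36, and at -3.57 ± 0.24 in EpiLCs. Zfp36l2 stood at -2.17 ± 0.22 and -2.09 ± 0.21, clear of its neighbours in the order.

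The Roquin mRNAs came next, at -0.92 ± 0.37 for Rc3h1 and -0.72 ± 0.57 for Rc3h2 in ESCs and at -1.04 ± 0.06 and -0.70 ± 0.06 in EpiLCs. The wide ESC spread came with library number 3, where the ratio of Rc3h2 was -0.07 beside -1.13 and -0.94. Elavl2 stood at -0.30 ± 0.12 and -0.51 ± 0.31, Pum2 at 0.31 ± 0.28 and 0.09 ± 0.05, and Khsrp at 0.44 ± 0.15 and 0.19 ± 0.25.

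Elavl1 held the highest ratio of the 9 in ESCs, at 1.08, 0.86 and 1.15. In EpiLCs it stood at 0.03, 0.03 and 0.06, in the middle of all genes and overlapping Pum2, the next gene in the order. All ESC ratios of Elavl1 were above all its EpiLC ratios, and the mean share of genes below it went from 75.9% to 46.5%. These ratios come from the libraries that gave its stability term, so they are no separate evidence. With the 4sU and total libraries scaled apart, its means were 0.86 and -0.19, which shifts both cell types down but keeps the gap.

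**Figure D4:**
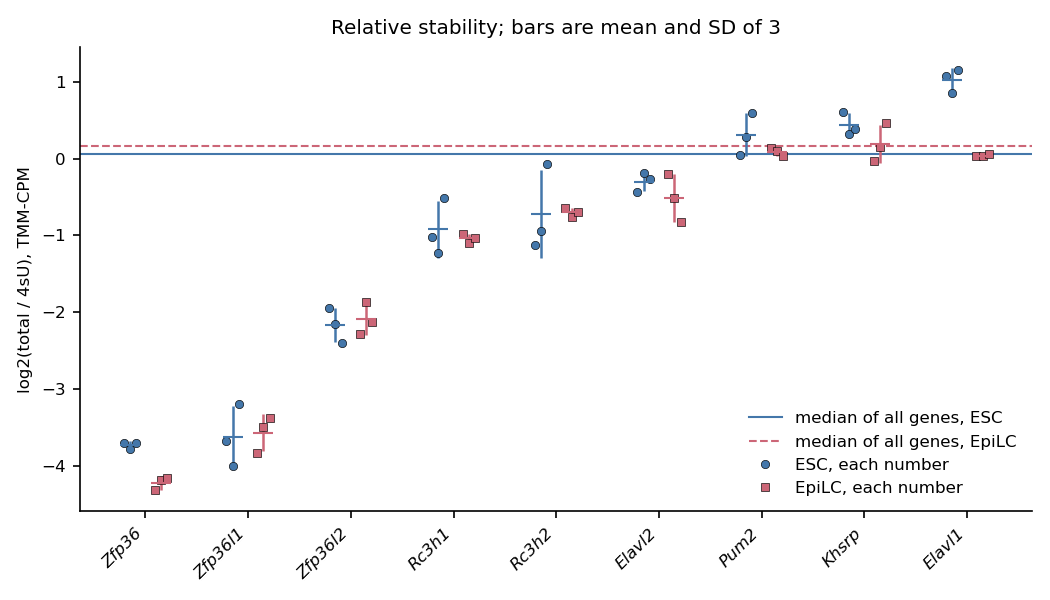
Relative stability of the 9 genes as log2 of total over 4sU level, for ESCs (circles) and EpiLCs (squares); each point joins the libraries of one number, bars are means and SD of 3, and horizontal lines are the medians of all genes. Zfp36 and Zfp36l1 lay below -3 in both cell types, and Elavl1 went from 1.03 to 0.04.

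Across all genes, 3′ UTRs with these elements went with lower ratios of total to 4sU RNA. The median ratio of genes with 0, 1, 2 and 3 or more TATTTAT matches was 0.48 ± 0.02, 0.08 ± 0.06, -0.19 ± 0.11 and -0.46 ± 0.14 in ESCs (SD of 3 medians) and 0.55 ± 0.02, 0.17 ± 0.02, -0.14 ± 0.04 and -0.40 ± 0.01 in EpiLCs. For TGTANATA the medians stepped from 0.47 ± 0.02 to -0.36 ± 0.19 in ESCs and from 0.53 ± 0.02 to -0.30 ± 0.02 in EpiLCs. Longer 3′ UTRs hold more matches, with a median length of 780 bases at no TATTTAT match and 3341 bases at 3 or more. Genes with a TATTTAT match were lower than those without by 0.54 in both cell types over all lengths, while within quartiles of 3′ UTR length the difference (with minus without) lay between -0.31 and -0.23 in ESCs and between -0.33 and -0.10 in EpiLCs. For TGTANATA the difference was -0.55 in ESCs and -0.52 in EpiLCs over all lengths, and within quartiles it lay between -0.39 and -0.23 and between -0.38 and -0.17. The median stability change of genes with a TATTTAT match exceeded that of genes without by 0.03, and by 0.02 for TGTANATA. Among the 9 genes, Khsrp with 0 matches and Pum2 with 1 stood at 0.44 and 0.31 in ESCs and at 0.19 and 0.09 in EpiLCs, and Rc3h1 with 2 stood at -0.92 and -1.04. The 5 genes with 3 matches ranged from -3.73 to -0.30 in ESCs and from -4.23 to -0.51 in EpiLCs. Elavl1, with 8 matches, stood above all of them in ESCs, at 1.03. In EpiLCs it stood at 0.04, below Khsrp and Pum2 and above the rest.

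**Figure D5:**
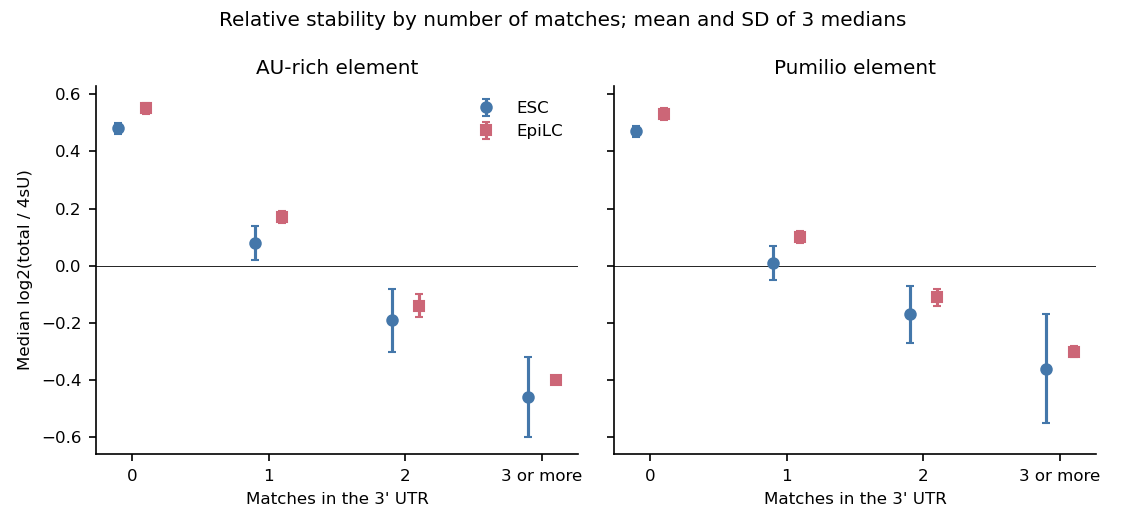
Median log2 ratio of total to 4sU level of protein-coding genes by the number of AU-rich (TATTTAT, left) or Pumilio (TGTANATA, right) matches in the 3′ UTR, for ESCs (circles) and EpiLCs (squares), with the mean and SD of 3 medians. The median went from 0.48 at no AU-rich match to -0.46 at 3 or more in ESCs.

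Other genes of these pathways were counted from lists chosen by function. A list of 16 other RNA-binding protein genes held AU-rich element binders and also the Regnase (Zc3h12) and Celf genes. Of the 16, 13 passed the filter. By limma-voom 2 were called higher in EpiLC total RNA and 1 lower, near the shares of 16.3% and 11.2% over all genes. Elavl3, a neuronal HuR paralog, rose from 3.30 ± 0.471 to 15.2 ± 2.13 CPM (log2 change 2.20 ± 0.18), and Zc3h12c, a Regnase family gene, rose from 13.1 ± 1.40 to 37.4 ± 2.54 CPM (log2 change 1.53 ± 0.12). Zc3h12a, which encodes the endonuclease Regnase-1, a partner of the Roquins in the decay of stem-loop mRNAs, fell from 7.13 ± 2.01 to 2.17 ± 0.762 CPM (log2 change -1.80 ± 0.41, limma-voom adjusted p = 0.00138).

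From a list of Pumilio partners, Nanos1, the gene of a Pumilio cofactor, was called lower in EpiLC total RNA by limma-voom, at 15.5 ± 0.341 CPM in ESCs and 7.37 ± 0.528 CPM in EpiLCs (log2 change -1.07 ± 0.16). Over all genes 11.2% were called lower, and since no count of this list is given, no share of it is compared with that value.

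Of 14 genes of the CCR4-NOT complex and its Tob and Btg partners, all passed the filter, 3 were called lower in total RNA and 0 higher by limma-voom, edgeR and DESeq2, with 5 higher and 4 lower by the adjusted p-value alone (and by the unadjusted one). Over all genes 11.2% were called lower and 63.5% passed the adjusted p-value, so the list passed it about as often as all genes did. The 3 were the partners Tob1 (log2 change -1.11 ± 0.11) and Btg1 (-1.05 ± 0.19) and the subunit gene Cnot10 (-1.01 ± 0.08, named after its value was seen). Cnot10 lay just past the fold threshold, and its call was not examined with other scalings or left-out libraries. Of 18 textbook targets of AU-rich decay 11 passed the filter, 5 were called higher and 0 lower by limma-voom, edgeR and DESeq2, with 7 higher and 1 lower at an unadjusted p-value under 0.05. Over all genes 16.3% were called higher and 11.2% lower. Myc, the proto-oncogene, rose from 2.39 ± 1.00 to 25.1 ± 3.02 CPM in total RNA (log2 change 3.33 ± 0.35) and by a log2 change of 3.33 ± 0.22 in 4sU RNA. Fosb, at no more than 10 reads in any total library, gave a log2 change of 1.42 ± 0.57, and the call was lost in 7 of 12 fits that left out 1 library. The other 3, Junb, Plaur and Ptgs2, were named after their values were seen (log2 changes 1.42 ± 0.24, 1.42 ± 0.16 and 1.32 ± 0.29).

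All 7 known Pumilio targets passed the filter, and 1, Fzd8, a Wnt receptor gene, was called higher (log2 change 1.15 ± 0.13). Among 7 genes of the p38 and MK2 kinase axis that controls tristetraprolin by phosphorylation, 1, Mapk11, the gene of p38 beta, was called higher (log2 change 1.66 ± 0.12). Both counts, 1 of 7, lie near the 16.3% of all genes called higher in total RNA. For stability, 0 genes of these 6 lists were called by limma-voom or edgeR, where limma-voom called 1.54% of all genes. The unadjusted p-value was under 0.05 for 0 to 2 genes a list. By the adjusted p-value alone 3 genes were lower, 1 of 11 AU-rich decay targets and 2 of 7 kinase axis genes, where 1.88% of all genes were. These 3 were named after their values were seen. They were the AU-rich decay target Ier3 (-0.99 ± 0.27, limma-voom adjusted p = 0.0494), which DESeq2 called at -1.02, and the 14-3-3 protein genes Ywhaz (-0.54 ± 0.13, limma-voom adjusted p = 0.03) and Ywhab (-0.51 ± 0.12, limma-voom adjusted p = 0.0347). Ier3 thus had a stability term close in size to that of Elavl1, with a wider error.

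The genes whose level followed that of Zfp36 most closely over the 12 libraries were Zmynd19, Ncoa7 and Ammecr1l, each with a Pearson r of 0.991 among 10174 genes searched. This likeness is a description, and much of what the points share is the gap between total and 4sU libraries and between the cell types. The changes of these genes were smaller than that of Zfp36, with log2 changes in total RNA of 0.47 ± 0.07, 0.94 ± 0.11 and 1.13 ± 0.10.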

How the data were processed

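The authors trimmed reads with cutadapt 1.14, aligned them with STAR 2.5.3a to mm10 and counted unique reads per gene by strand with featureCounts 1.5.3 on GENCODE basic annotation, and these counts were deposited without normalisation. The 92 spike-in entries held 0 reads. Unique reads can undercount near-identical copies. Counts were analysed with limma 3.58.1 (voom, no replicate block, 4 group means, TMM scaling from edgeR 4.0.16) in R 4.3.3, on genes that reached 3 CPM in 3 or more libraries. The model was run on simulated counts with the same dispersion for every gene and changes well over the fold threshold. That run does not show how the model does with smaller changes. Levels per length used the exon length in the deposited table. The 3′ UTRs were taken from principal transcripts of GENCODE M21 (GRCm38). Likeness used log2(CPM + 0.5) over genes whose mean was 10 CPM or more. The 9 genes and the other lists were chosen with earlier results of these data known. All 9 were described in full. From each other list, cell type markers aside, at most the 2 largest called rises and falls in total RNA and any call in stability were named. Among the markers, limma-voom called 1 pluripotency marker lower and 1 fibroblast marker (Dcn) higher in stability. Alternatives were DESeq2 1.42.0, edgeR, other scalings, filters, weights, blocks and left-out libraries. Protein sequences were not used here. A gene of these lists is not reported here.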

Additional observations from a re-analysis of the deposited data

Results flagged for a closer look

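Elavl1 stood out by a difference between its 2 effects. Its change from ESCs to EpiLCs was 1.09 ± 0.08 in 4sU RNA and 0.10 ± 0.07 in total RNA on the log2 scale, and the interaction term that tests this difference was -0.98 ± 0.10 (limma-voom adjusted p = 0.000497). All 3 ESC ratios of total to 4sU RNA were above all 3 EpiLC ratios, which restates the same difference from the same libraries. The adjusted p-value over the 12 fits that left out 1 library ranged from 9.11e-05 to 0.00397. No other of the 9 genes had an adjusted p-value under 0.05 for this term. Whether Elavl1 RNA had reached a constant level in EpiLCs, which reading the term as stability assumes, was not tested.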

How the results depend on the processing

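The call of Zfp36 in total and 4sU RNA and that of Elavl1 in 4sU RNA held in every setting that estimated these changes. Elavl1's stability term passed both thresholds with median-of-ratios scaling (-1.07), TMM within each kind of RNA (-1.04), no expression filter (-1.08), a filter of 10 CPM (-1.04) and DESeq2 (-1.07), giving 1 gene lower in place of 0, and it ranged from -1.10 to -0.93 with single libraries left out (0 to 1 genes). The term fell short of the fold threshold with library totals alone and with sample quality weights (-0.92 each), and with edgeR (-0.99). Both replicate blocks (-0.98 each) and leaving out both ESC libraries numbered 3 (-0.91) also left it short. Zfp36l1 became the 1 gene called lower in 4sU RNA with sample quality weights (-1.05) and without both ESC libraries numbered 3 (-1.13), and 0 to 1 genes were called lower with single libraries left out. With the adjusted p-value alone 4 genes were higher and 2 lower in total RNA, 6 higher and 1 lower in 4sU RNA, and 1 lower in stability, and over all genes 9353, 7731 and 678 passed.

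Over all genes, 4059 were called in total RNA, 3751 in 4sU RNA and 227 in stability. Without a filter the first 2 counts were 7107 and 5723 (more genes tested), and at 10 CPM 2625 and 2428 (fewer genes tested). Stability calls were 846 with quality weights, 779 without both ESC libraries numbered 3, and 69 (without EpiLC 4sU library 1) to 658 (without ESC total library 3) with single libraries left out, and the cause was not tested. Of the stability calls 80.2% were higher in EpiLCs, 66.7% with median-of-ratios scaling and 90.0% with library totals alone.

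A replicate block for the number gave 354 stability calls, and a block for cell type and number, joining total and 4sU libraries, gave 528. The block for the number changed no call of the 9 genes. The block for cell type and number can estimate only the stability term, and it changed no stability call of the 9. Elavl1 stayed at -0.98 with either block. Deviations from the group means correlated by 0.024 to 0.484 between total and 4sU libraries of one number, 10 of 12 libraries correlating best with their own number, and by -0.156 to 0 between ESCs and EpiLCs, so not every pair passed 0.1 and the model had no block. The labels say that extracts were split between the 2 kinds of RNA but do not tie the numbers to extracts, and the ratios of total to 4sU level match libraries by number.

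Stability terms near 0 changed sign without passing the test. Zfp36l1 (0.07) was -0.02 with median-of-ratios scaling and with no filter, and -0.17 to 0.21 with single libraries left out. Zfp36l2 (0.06) was -0.03, -0.05 and, with DESeq2, -0.05, was -0.01 without both ESC libraries numbered 3, and -0.12 to 0.15. Rc3h1 (-0.10) was 0.01 with quality weights and 0.11 without both ESC libraries. Rc3h2 (0.03) was -0.05 with median-of-ratios scaling and with no filter, -0.02 with TMM within each kind of RNA and at 10 CPM, -0.03 with DESeq2, and -0.12 to 0.18. The nascent change of Elavl2 was -0.14 to 0.07. In EpiLCs the difference by AU-rich match was -0.58 with ATTTA searched in place of TATTTAT, and that by Pumilio match was -0.56 at 10 CPM. The total RNA calls of Nanos1 (-0.98) and Btg1 (-0.97) fell short with library totals alone, Btg1 did so in 3 of 12 fits without 1 library (-0.93 at the least), and that of Fosb was lost with no filter.

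At this depth Zfp36 in ESC total RNA rested on 23 to 41 reads a library, and changes under the intervals given cannot be shown.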
